A study of Arabidopsis thaliana with 6 samples.

Results

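Calmodulin-like (CML) genes encode small calcium sensors, and 10 of them were followed in leaf RNA of Arabidopsis thaliana among the 27655 gene loci of the deposited tables. They were CML8 (AT4G14640), CML9 (AT3G51920), CML10 (AT2G41090), TCH3 (CML12, AT2G41100), CML23 (AT1G66400), TCH2 (CML24, AT5G37770), CML37 (AT5G42380), CML38 (AT1G76650), CML41 (AT3G50770) and CML42 (AT4G20780). The 10 were chosen by locus name, with the ratios of CML38 and TCH2 between these same libraries already known, so the ratios given here are descriptions and support nothing further. Of the 10 genes, 8 had at least 20 reads over both libraries and are called measured. One library came from plants labelled jmj16, the insertion line jmj16-1 (SAIL_535_F09) in the Col-0 background, and the other from wild type Col-0, with no treatment named in the labels. Leaves 5 and 6 were taken fully expanded and before visible yellowing, from plants grown at 22 °C with 16 h of light. The age is given as 4 weeks in one label field and 5 weeks in another. There was 1 library per genotype and 1 insertion allele, the number of plants behind a library is not given in the sources used here, and the 4 chromatin samples of the series were not analysed here.

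Calcium ions carry signals of touch, wounding, cold, microbes and low oxygen in plant cells. Calmodulin and the CML proteins bind the ion through EF-hand motifs, change shape and then bind other proteins. The TCH genes take their name from touch, to which their transcripts respond within minutes in Arabidopsis. Calcium-dependent protein kinases, and calcineurin B-like (CBL) proteins with their kinases, are the other main sensor families, while pumps, exchangers and channels shape the calcium signal itself. JMJ16 is a demethylase of lysine 4 of histone H3, which the series title links to leaf senescence.

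The library labelled jmj16 held 13844284 estimated counts and the wild type library 10643186. JMJ16 itself (AT1G08620) had 168 reads in the jmj16-labelled library and 188 in wild type, with a log2 ratio of -0.63 (95% counting interval -0.94 to -0.33), so its count does not check the label. In counts of genes, higher and lower stand for a gene that differed at least 2-fold and whose ratio had a 95% counting interval excluding 1. The log2 ratio fell with transcript length across genes (Spearman rho -0.44 over 17151 measured genes, which are not independent replicates), and the CML genes are short. For that reason the ratio of each measured CML gene, and the median of each list of calcium and touch genes, is also given after subtraction of this trend. The log2 ratio of JMJ16, whose transcript is long (4427 nt), changed sign with this subtraction, to 0.37 (0.06 to 0.68). Leaf mesophyll markers were abundant in both libraries: the summed level of 5 of them was 20056 TPM (a level per transcript length, scaled to the library's total) in the jmj16-labelled library and 28251 TPM in wild type. Of 5 xylem markers 4 were measured, 3 of them higher and 1 neither, where 7.22% of all measured genes were higher. Higher were XCP2 (91 reads in the jmj16-labelled library and 21 in wild type), XCP1 (26 and 5) and CESA8 (18 and 2). With a minimum of 100 reads or with log2(TPM + 1) XCP2 alone passed. The summed level of the 5 was 7.80 TPM in the jmj16-labelled library and 2.50 TPM in wild type. Of 6 flower and seed markers 4 were measured, 2 of them lower and 2 neither, where 10.6% of all measured genes were lower. SEP1 had 2.1 reads in the jmj16-labelled library and 34.5 in wild type, and CRA1 had 0 and 23. Both reached the minimum of 20 reads through the wild type library alone, and with a minimum of 100 reads 0 were lower. The summed level of the 6 was 2.98 TPM in the jmj16-labelled library and 8.72 TPM in wild type. Of 5 root markers 2 were measured and neither passed the rule, with 10.2 TPM in the jmj16-labelled library and 8.62 TPM in wild type. SHR had 145 reads in the jmj16-labelled library and 55 in wild type (log2 ratio 0.92), SCR had 225 in the jmj16-labelled library and 188 in wild type, CASP1 had at most 3 in either, and PLT1 and WOX5 had 0 in both. Of 4 phloem markers none passed the rule (207 TPM in the jmj16-labelled library and 224 TPM in wild type). Of 5 guard cell markers 3 were lower and 2 neither, where 10.6% of all measured genes were lower. Lower were FAMA (110 reads in the jmj16-labelled library and 159 in wild type), KAT1 (80 and 122) and HT1 (18 and 31). SLAC1 went the other way (104 and 57.5, log2 ratio 0.39), and MYB60 had 160 and 137 (-0.25). With total-count scaling HT1 alone was lower, and with log2(TPM + 1) 0 were. The summed level of the 5 was 21.3 TPM in the jmj16-labelled library and 28.8 TPM in wild type. After length correction 4 xylem markers and 1 root marker (SHR, 1.08) were higher, and 1 guard cell marker and 2 flower and seed markers were lower. Of all measured genes 6.21% were then higher and 6.64% lower. The part of these cell types in the CML values was not tested, and in bulk leaf RNA fewer cells of a type and less RNA per cell cannot be told apart.

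All 8 measured CML genes had more reads per scaled library in the jmj16-labelled library, as did 51.2% of all measured genes and 69.6% of those in the CML genes' range of transcript length. By the 2-fold rule 4 of the 8 were higher (CML38, CML41, CML37 and TCH2), 0 were lower and 4 were neither. Of all measured genes 7.22% were called higher and 10.6% lower. Among the 5747 measured genes whose transcript lengths lie between those of the shortest and the longest measured CML gene (720 to 1433 nt), 10.9% were called higher. The median log2 ratio was 1.06 over the 8 CML genes, against 0.02 over all measured genes and 0.28 over genes in that length range. After the correction for length 3 of the 8 were higher and 5 neither, with a median of 0.76, where 6.21% of all measured genes were higher and 6.64% lower. Because ratios known beforehand took part in the choice of these genes, and because there was 1 library per genotype, no test stands behind any of these counts.

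**Figure D1:**
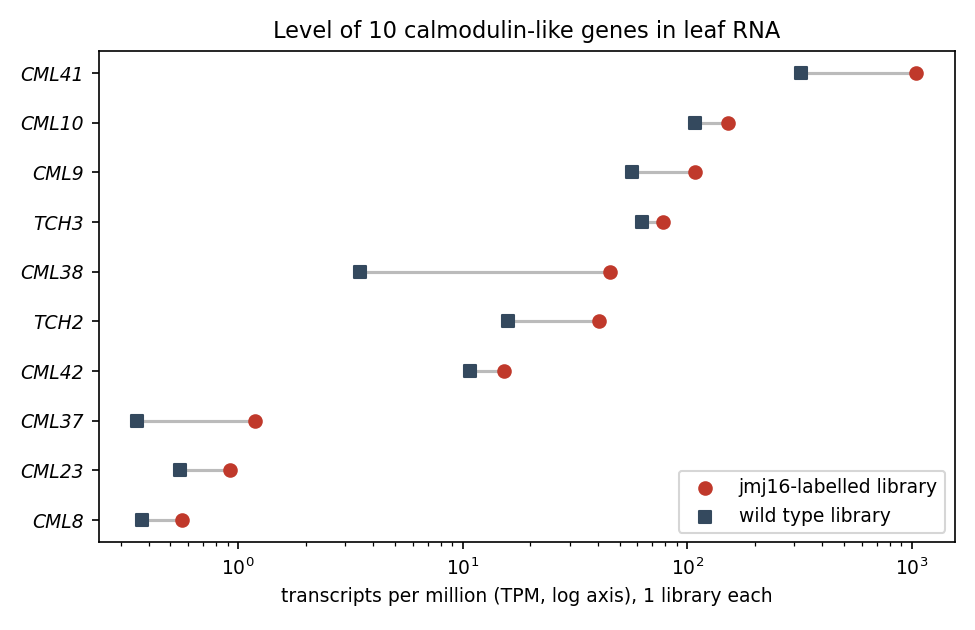
Level of each of the 10 CML genes in TPM on a log axis, with the jmj16-labelled library as red circles and the wild type library as dark squares, 1 library each. CML41 is the highest in the jmj16-labelled library (1043 TPM) and in wild type (320 TPM), and the widest gap belongs to CML38 (45.1 TPM in the jmj16-labelled library, 3.50 TPM in wild type).

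CML38, a sensor that in Arabidopsis is induced by low oxygen and found in stress-related RNA granules, differed most. It had 349 reads in the jmj16-labelled library (95% Poisson interval 313 to 388) and 20.5 in wild type (12.2 to 30.9). Its level was 45.1 TPM in the jmj16-labelled library and 3.50 TPM in wild type. The log2 ratio was 3.62 (3.00 to 4.38), that is 12.3-fold higher, the 33rd highest among all measured genes. Corrected for length it was 3.24 (2.63 to 4.01). In the order of TPM among the 10 genes CML38 was number 5 in the jmj16-labelled library, where its counting interval (40.5 to 50.1 TPM) overlapped that of TCH2 (36.9 to 44.6 TPM), and number 7 in wild type.

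CML37, a sensor reported in Arabidopsis to promote jasmonate-dependent defence against feeding insects, was rarely read. It had 22 reads (13.8 to 33.3, 1.19 TPM) in the jmj16-labelled library and 5 reads (1.62 to 11.7, 0.36 TPM) in wild type. The log2 ratio was 1.56 with a wide interval (0.23 to 3.42), and 1.39 (0.05 to 3.25) after length correction. CML37 reached the minimum of 20 reads through the jmj16-labelled library alone. It passed the 2-fold rule, but with so few reads its fold of 2.95 could lie anywhere between 1.17 and 10.7. The rule was not met with 5 added to each count, with log2(TPM + 1) or with a minimum of 100 reads.

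CML41, a protein of plasmodesmata, the channels between plant cells, that takes part in their closure during immune responses, was the most abundant of the 10. It had 11628 reads in the jmj16-labelled library (11418 to 11841) and 2702 in wild type (2601 to 2806). In TPM these are 1043 in the jmj16-labelled library, above 99.5% of all loci, and 320 in wild type, above 98.7%. The log2 ratio was 1.63 (1.57 to 1.70), 3.10-fold higher, and 1.32 (1.26 to 1.38) after length correction. CML41 alone made up 70.2% of the summed TPM of the 10 genes in the jmj16-labelled library and 55.2% in wild type. That sum was 1486 TPM in the jmj16-labelled library and 580 TPM in wild type, a ratio of 2.56. Without CML41 it was 442 TPM in the jmj16-labelled library and 260 TPM in wild type, a ratio of 1.70. Both are ratios of TPM, unlike the fold of CML41 from scaled counts, and neither is corrected for the length trend.

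CML42, which in Arabidopsis restrains defence against feeding insects and takes part in trichome branching, differed little. It had 184 reads (158 to 213, 15.3 TPM) in the jmj16-labelled library and 98 reads (79.6 to 119, 10.7 TPM) in wild type. Its log2 ratio was 0.43 (0.08 to 0.81), and after length correction the interval held 0 (0.14, -0.22 to 0.51). The level of CML41 was 68.3 times that of CML42 in the jmj16-labelled library and 29.8 times in wild type, both as TPM.

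The touch genes TCH2 and TCH3 differed in their ratios. TCH2, a sensor that also affects flowering time, had 444 reads (404 to 487, 40.6 TPM) in the jmj16-labelled library and 134 reads (112 to 159, 15.9 TPM) in wild type. The log2 ratio was 1.25 (0.97 to 1.55), 2.38-fold higher. After length correction it was 0.93 (0.66 to 1.23), which lies under 2-fold. TCH3, known to bind the auxin-transport kinase PINOID, had 1289 reads (1220 to 1361, 78.1 TPM) in the jmj16-labelled library and 794 reads (740 to 851, 63.2 TPM) in wild type. Its log2 ratio of 0.23 (0.10 to 0.36) was the smallest of the 8, and after length correction it was 0.01 (-0.12 to 0.14). In TPM, TCH3 stood at 1.92 times TCH2 in the jmj16-labelled library and at 3.97 times in wild type.

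CML23, which shares roles with TCH2 in flowering and nitric oxide levels, had 11 reads in the jmj16-labelled library (5.49 to 19.7) and 5 in wild type (1.62 to 11.7), under the minimum of 20. The interval of its ratio, 0.51 to 5.83, spans 1, so no difference was detectable at this depth. The level of TCH2 was 44.1 times that of CML23 in the jmj16-labelled library and 28.8 times in wild type.

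CML8, CML9 and CML10 complete the set. CML9, reported to act in abscisic acid and flagellin responses, had 1392 reads (1320 to 1467, 109 TPM) in the jmj16-labelled library and 550 reads (505 to 598, 56.7 TPM) in wild type. Its log2 ratio of 0.87 (0.72 to 1.01) lay just under the 2-fold line, above the ratios of 90.2% of measured genes, and was 0.58 (0.44 to 0.73) after length correction. CML9 was number 3 in TPM in the jmj16-labelled library, above TCH3. In wild type it was number 4, and there its counting interval (52.1 to 61.7 TPM) overlapped that of TCH3 (58.9 to 67.7 TPM). CML10, reported to bind an enzyme of ascorbate synthesis, had 2960 reads (2854 to 3069, 152 TPM) in the jmj16-labelled library and 1605 reads (1527 to 1685, 109 TPM) in wild type. Its log2 ratio was 0.41 (0.32 to 0.50), and 0.26 (0.17 to 0.35) after length correction. CML10 was number 2 in TPM in both libraries. CML8, close in sequence to calmodulin, was hardly read, with 2 reads in the jmj16-labelled library and 1 in wild type, so no ratio is given.

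**Figure D2:**
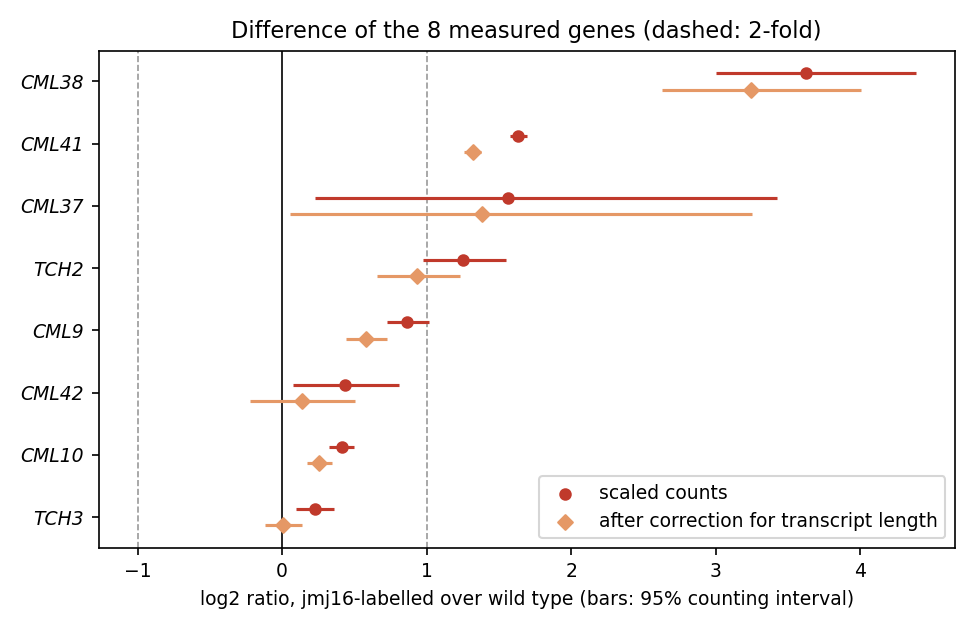
Log2 ratio (jmj16-labelled over wild type) for the 8 measured CML genes, from scaled counts (circles) and after correction for transcript length (diamonds), with 95% counting intervals as bars and dashed lines at 2-fold. The 8 circles lie above 0, from 0.23 (TCH3) to 3.62 (CML38), and after correction the intervals of TCH3 and CML42 include 0.

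**Figure D3:**
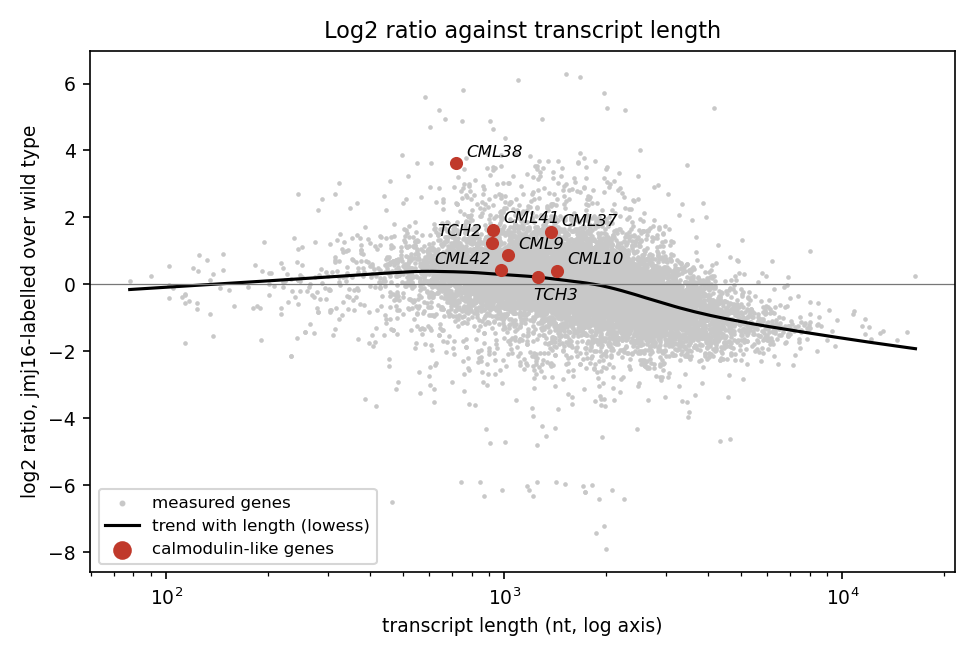
Log2 ratio (jmj16-labelled over wild type) against transcript length on a log axis, with measured genes in grey, the 8 measured CML genes in red and the lowess trend as a black line. The trend is 0.38 at the length of CML38 and 0.15 at that of CML10, and TCH3 lies on it.

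The length trend moves with these results. In the deciles of length that hold the 8 genes, the median log2 ratio was 0.38 (up to 857 nt, which holds CML38), 0.32 (857 to 1075 nt, with TCH2, CML41, CML42 and CML9), 0.25 (1075 to 1271 nt, with TCH3) and 0.20 (1271 to 1451 nt, with CML37 and CML10). In these deciles 15.2%, 10.3%, 9.91% and 10.3% of genes were called higher, against 0.87% in the longest decile (over 2992 nt). Between 3.56% and 6.00% of genes were called lower in these 4 deciles, against 9.56% from 2067 to 2394 nt, 19.4% from 2395 to 2992 nt and 41.1% in the longest. What gives rise to the trend was not tested.

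Of the 10 genes 4 have more than 1 transcript model. CML38 is annotated with 3, and AT1G76650.3 (713 nt) held 85.7% of its reads in the jmj16-labelled library and 78.6% in wild type. That model alone had 299 reads in the jmj16-labelled library and 16.1 in wild type, with a log2 ratio of 3.71 (3.03 to 4.58). The second model, AT1G76650.2, had 44.4 reads in the jmj16-labelled library and 4.39 in wild type. Its log2 ratio was 2.83 (1.53 to 4.93). How the reads of CML38 divide between these models is an estimate, and that error is not part of the intervals. How far their reads can be told apart was not tested, so the ratio of the second model is not a separate observation. TCH2 was read almost wholly from AT5G37770.2, with 99.3% of its reads in the jmj16-labelled library and 96.1% in wild type.

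TCH3 has 7 models, of which 4 held reads. AT2G41100.1 held 93.2% of them in the jmj16-labelled library and 91.4% in wild type, with a log2 ratio of 0.26 (0.12 to 0.39). Of the minor models AT2G41100.2 had 62.0 reads in the jmj16-labelled library and 27.0 in wild type, whereas AT2G41100.4 had 18.2 reads in the jmj16-labelled library and 28.1 in wild type. The log2 ratios of this pair were 0.71 (0.05 to 1.44) and -1.10 (-2.05 to -0.20). Such small shares are estimates of how reads divide among overlapping models, and that error is not part of the intervals. In the reference the TCH3 locus overlaps AT2G41105 and the non-coding AT2G09220, and no strand setting is given in the sources used here. AT2G41105 was assigned 96 reads in the jmj16-labelled library and 35 in wild type (log2 ratio 0.97, 0.41 to 1.59). How far reads of these loci can be told apart from those of TCH3 was not tested. AT2G09220 also overlaps CML10, and AT5G37760, with 0 reads in both libraries, overlaps TCH2. All reads of CML8 went to AT4G14640.3, 1 of its 3 models.

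**Figure D4:**
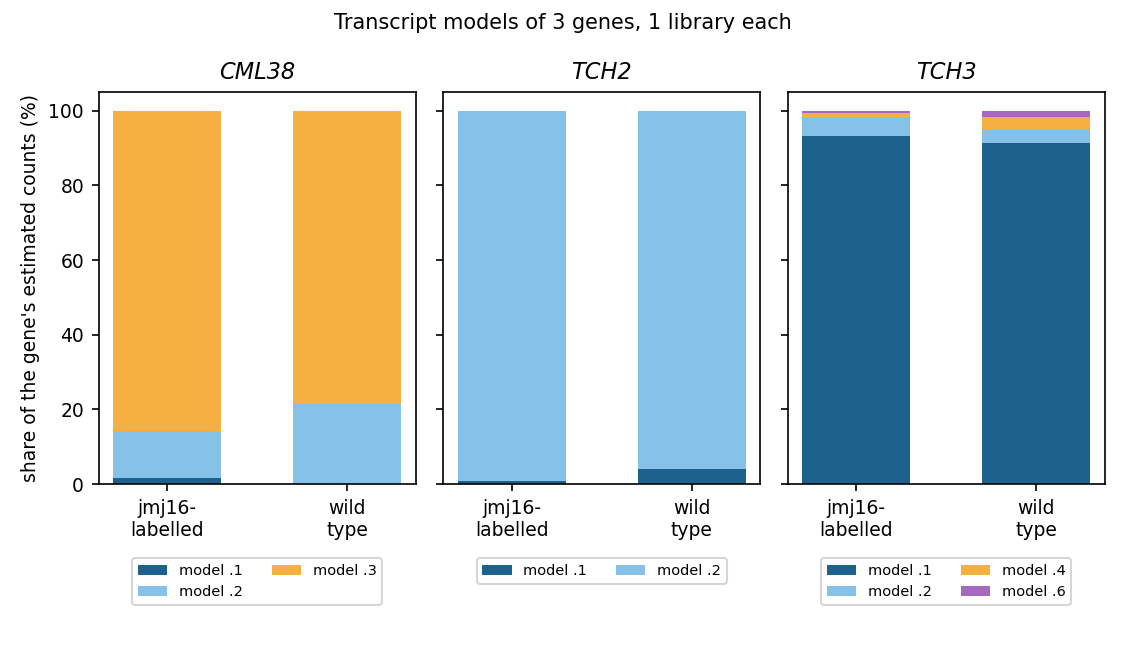
Share of a gene's estimated counts (percent, stacked to 100) that went to each transcript model with reads, for CML38, TCH2 and TCH3, in the jmj16-labelled library (left bar) and wild type (right bar), 1 library each. The leading model is the same in both libraries for each gene, with 85.7% in the jmj16-labelled library and 78.6% in wild type for CML38.

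Other calcium sensors of the same kind were read beside them. Of the other CML symbols only 5 were found in the reference, and 2 of these were measured. A further 36 CML symbols had no match there, so this pair does not speak for the rest of the family. CML11 had 58.5 reads in the jmj16-labelled library and 13.1 in wild type, with a log2 ratio of 1.64 (0.80 to 2.68). CML30 had 140 reads in the jmj16-labelled library and 39.9 in wild type, with a log2 ratio of 1.32 (0.82 to 1.88). Both were called higher, where 7.22% of all measured genes were, 15.2% of those up to 857 nt and 10.3% of those from 857 to 1075 nt. Of this pair CML11 alone passed after length correction, and CML30 alone with a minimum of 100 reads. CML3, CML39 and CML43 had 0 reads in both libraries; CML39 is the direct neighbour of CML38.

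The 7 calmodulin genes were all measured and all had log2 ratios above 0, from 0.19 to 1.07, with a median of 0.51 and, after length correction, 0.16. By the 2-fold rule 2 were higher, 0 lower and 5 neither, where 7.22% of all measured genes were higher. Their median length was 846 nt, and 15.2% of measured genes up to 857 nt were higher. After length correction 0 of the 7 were higher. CAM3 had 5119 reads in the jmj16-labelled library and 1760 in wild type (log2 ratio 1.07, 0.99 to 1.15, and 0.81 after length correction). CAM2, the touch gene TCH1, had 389 reads in the jmj16-labelled library and 139 in wild type (2.01-fold, 1.66 to 2.47, and a log2 ratio of 0.66 after length correction). Several calmodulin genes encode the same protein, and how far their reads can be told apart was not tested, so their single values are uncertain. The median of the 8 CML genes was larger than that of the calmodulins on both scales, and CML9, CML10, TCH3 and CML42 lay within the calmodulins' range of uncorrected log2 ratios.

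The calcineurin B-like sensors had a median log2 ratio of 0.27, which turned to -0.10 after length correction. Of 7 measured 1 was higher, 0 lower and 6 neither, and after length correction 0 were higher. Before correction 7.22% of all measured genes were higher, and 9.91% of those from 1075 to 1271 nt, where the sensors' median length (1249 nt) lies. CBL1, a plasma membrane sensor of stress and potassium supply, had 215 reads in the jmj16-labelled library and 75 in wild type (1.04, 0.66 to 1.45), and did not pass after length correction (0.82). CBL2 and CBL3, sensors of the vacuole membrane, had log2 ratios of 0.03 (-0.12 to 0.19) and 0.36 (0.12 to 0.61), and of -0.10 and 0.13 after length correction.

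The sensor kinases have longer transcripts, and most of them were neither higher nor lower. The calcium-dependent protein kinases had a median log2 ratio of -0.50 (-0.34 after length correction) and a median length of 2192 nt. Of 23 measured 0 were higher, 5 lower and 18 neither, where 10.6% of all measured genes and 9.56% of those from 2067 to 2394 nt were lower. The lower ones were CPK27 (log2 ratio -2.14, -4.03 to -0.74), CPK24 (-2.06, -3.59 to -0.85), CPK23 (-1.92, -2.37 to -1.50) and CPK26 (-1.11, -2.20 to -0.09), and also CPK7 (-1.06, -1.38 to -0.75). CPK23, which activates the guard cell anion channel SLAC1, had 62.0 reads in the jmj16-labelled library and 170 in wild type, and CPK27, CPK24 and CPK26 each had at most 22 reads in either library. With a minimum of 100 reads 2 kinases were lower (CPK7 and CPK23), and with log2(TPM + 1) CPK23 alone was. After length correction 4 were lower, without CPK7, where 6.64% of all measured genes were, and also CPK10 was higher (0.88 before correction and 1.31 after it). The CBL-interacting kinases had a median of -0.16 (-0.18 after length correction). Of 22 measured 1 was higher, 3 lower and 18 neither, where 7.22% of all measured genes were higher and 10.6% lower. Log2 ratios above 0 were found for 10 of the 22. CIPK15 was the higher one (373 reads in the jmj16-labelled library and 101 in wild type, log2 ratio 1.41, 1.09 to 1.75), and CIPK2 (-1.43, -2.22 to -0.70), CIPK1 (-1.41, -1.59 to -1.23) and CIPK20 (-1.25, -1.37 to -1.13) were lower. These 4 were also called after length correction, where 6.21% of all measured genes were higher and 6.64% lower.

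The CAMTA genes encode transcription factors that bind calmodulin, and CAMTA3 restrains salicylic acid defence in Arabidopsis. All 3 that the reference names were called lower. CAMTA3 had 224 reads in the jmj16-labelled library and 469 in wild type (log2 ratio -1.54, -1.77 to -1.31), CAMTA2 had a log2 ratio of -1.11 (-1.49 to -0.74) and CAMTA1 of -1.08 (-1.40 to -0.76). Their transcripts are long (median 3574 nt), in the decile where 41.1% of genes were lower, and after length correction 0 of the 3 passed, with a median of -0.39.

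Calcium pumps and exchangers were mixed, with a median log2 ratio of -0.34 that turned to 0.34 after length correction (median length 3533 nt). Of 16 measured 2 were higher, 1 lower and 13 neither, where 7.22% of all measured genes were higher and 10.6% lower. In the longest decile (over 2992 nt) 0.87% were higher and 41.1% lower. After length correction the same 2 genes of the list were higher and 0 lower. ACA12, a calcium pump, had 1195 reads in the jmj16-labelled library and 160 in wild type. Its log2 ratio was 2.43 (2.19 to 2.68), with an interval of 3.07 to 3.55 after length correction. CAX3, a vacuolar calcium and proton exchanger, had 6783 reads in the jmj16-labelled library and 2045 in wild type (1.26, 1.19 to 1.33, and 1.29 after length correction). The vacuolar pump ACA4 was lower (-1.51, -1.65 to -1.38) and did not pass after length correction (-0.79). Before length correction the ratio of ACA12 lay below that of CML38, and after it just above, with overlapping counting intervals. The calcium-permeable channels had a median of 0.19 (0.44 after length correction) and a median length of 2581 nt. Of 21 measured 0 were higher, 2 lower and 19 neither. By the same rule 10.6% of all measured genes and 19.4% of those from 2395 to 2992 nt were lower. The lower channels, CNGC15 (12 reads in the jmj16-labelled library and 21 in wild type) and GLR3.6 (16 and 25), were rarely read. After length correction 4 others (also CNGC3, CNGC9, CNGC11 and MSL10, named after their values were seen) were higher and 0 lower, where 6.21% of all measured genes were higher.

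**Figure D5:**
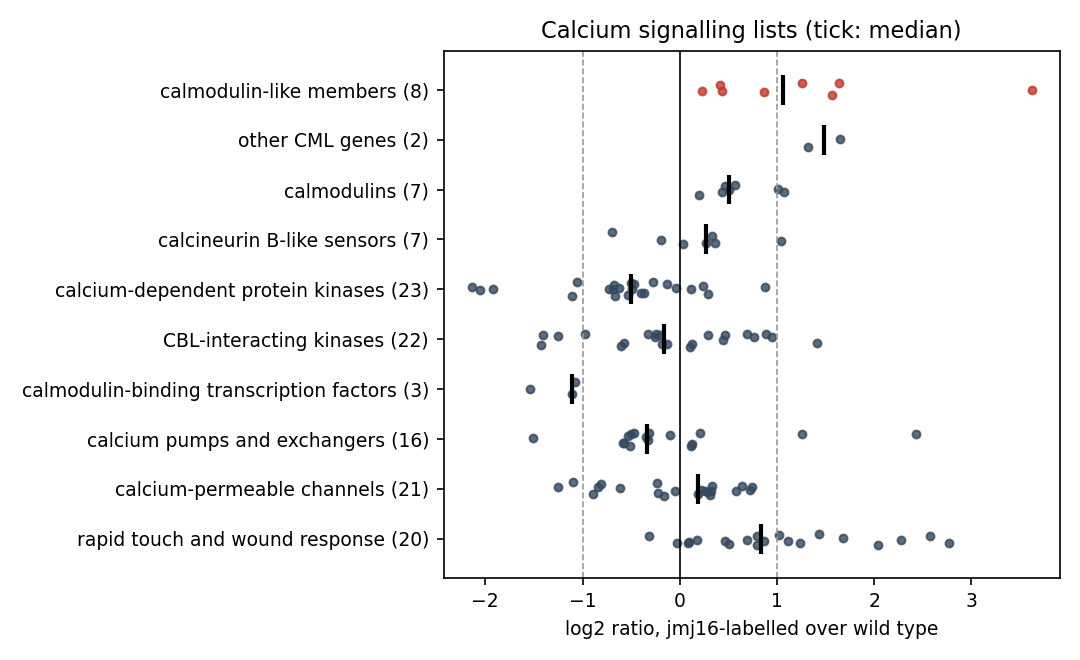
Log2 ratio (jmj16-labelled over wild type) for the measured genes of each list (number in brackets), with black ticks at the medians, dashed lines at 2-fold and the 8 CML genes in red, all before length correction. Medians lie above 0 for the CML genes (1.06), the 2 other CML genes (1.48), the touch and wound list (0.83) and the calmodulins (0.51). Those of the calcineurin B-like sensors (0.27) and the channels (0.19) do so too. Medians lie below 0 for the calcium-dependent kinases (-0.50), the CBL-interacting kinases (-0.16), the pumps and exchangers (-0.34) and the 3 CAMTA genes (-1.11).

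Genes of the rapid response to touch and wounding were set beside the CML genes, since TCH2 and TCH3 belong to that response. Their median log2 ratio was 0.83, and 0.88 after length correction. Of 20 measured 9 were higher, 0 lower and 11 neither, where 7.22% of all measured genes were higher. After length correction 8 of the 20 were higher, against 6.21% of all measured genes. The touch gene XTH22 (TCH4), a cell wall enzyme, was also measured and was neither, with 93 reads in the jmj16-labelled library and 63 in wild type (log2 ratio 0.09, and -0.01 after length correction). CBF1, a factor of the cold response, had 155 reads in the jmj16-labelled library and 15.7 in wild type (log2 ratio 2.77, 2.06 to 3.65, and 2.53 after length correction). The zinc finger gene ZAT12 (193 reads in the jmj16-labelled library and 23 in wild type) had a log2 ratio of 2.57 (1.97 to 3.29), the senescence regulator WRKY53 of 2.27 (1.73 to 2.91) and the jasmonate repressor JAZ10 of 2.04 (1.02 to 3.41). After length correction these 3 were 2.27, 2.15 and 1.85. The list was drawn up with the higher ratios of several of these genes known. Whether the leaves of both genotypes were collected in the same way is not given in the sources used here, and its part in the CML values was not tested.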

How the data were processed

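RNA-seq of leaves was analysed from 1 library labelled jmj16 and 1 of wild type. The authors deposited per transcript model an estimated count of reads, not normalized, and TPM, in the column layout of Salmon per the file headers. Salmon and the build TAIR10 are named, without a version, per the submitters' processing notes; no source used here gives trimming, read layout or strand setting. Transcript and effective lengths are in the same deposited tables (unit other, in nt). Counts and TPM were summed per locus and summed counts were rounded. Library sizes were scaled with TMM factors (1.03 for the jmj16-labelled library, 0.969 for wild type) from edgeR 4.0.16 in R 4.3.3, used for scaling only; the ratio has 0.5 added to each count. Ratios have exact (Clopper-Pearson) and counts exact Poisson 95% intervals; both speak of counting error alone, since reads are not separate molecules, and no test was possible with 1 library per genotype. The length trend is a lowess fit (span 0.3, statsmodels 0.14.6) on log10 length, the mean length of a locus's models weighted by reads. The calculation was tested on simulated data. Symbols came from a RefSeq table of TAIR10.1, which matched 27445 loci; 210 had no match. The name CML10 for AT2G41090 is not in that table and comes from the choice of genes. Of each list of calcium and touch genes the called genes were named, up to 4, largest absolute log2 ratio first. Where fewer than 2 were called, the 2 with most reads were named too. Genes introduced with "also" go beyond this. All 5 other CML genes found in the reference were named. Of the cell type markers, the genes called before length correction, all 5 guard cell markers and all 5 root markers were named. The genes and lists were chosen with earlier results of these data known. Planned protein and promoter features were not run, as no sequence table was used here.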

Additional observations from a re-analysis of the deposited data

How the results depend on the processing

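The 8 measured CML genes had log2 ratios above 0 under TMM, total-count, median-of-ratios (DESeq2 1.42.0) and upper-quartile scaling, with log2(TPM + 1), 5 added to each count, the most abundant transcript alone and length correction. CML38 ranged from 3.24 to 3.71, CML41 from 1.32 to 1.73, TCH2 from 0.93 to 1.35, CML37 from 0.69 to 1.65 and TCH3 from 0.01 to 0.32. Of the 10 genes 4 were higher by the rule used, 1 (CML38) at 4-fold, 2 (CML38 and CML41) with an interval wholly beyond 2-fold and 5 (with CML9) at 1.5-fold, the thresholds themselves being stricter or looser; 0 were lower under any of the 12 alternatives. Over all genes, against 1239 higher and 1825 lower, the counts were 747 and 1199 with a minimum of 100 reads, 941 and 747 with log2(TPM + 1), 2821 and 3355 at 1.5-fold, 255 and 292 at 4-fold, 487 and 807 with an interval beyond 2-fold, and 1065 and 1138 after length correction. The channels list had 3 higher and 1 lower member from the most abundant transcripts. Depth limits CML8, CML23 and CML37, each with at most 22 reads in a library. With 1 library per genotype no replicate could be left out, and no paired analysis was possible because there are no replicates.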

Other observations

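Some CML genes lie next to other calcium sensor genes in the reference order. TCH2 is followed by CAM1 (1825 reads in the jmj16-labelled library and 952 in wild type, log2 ratio 0.47, 0.35 to 0.58), and CML23 by CAM4 (2680 reads in the jmj16-labelled library and 1307 in wild type, 0.56, 0.47 to 0.66). CML10 and TCH3 are neighbours. Of the measured neighbouring coding genes of the 10 CML genes (12 in all, CML10 and TCH3 counted among them), 2 were called higher and 10 neither, where 7.22% of all measured genes were called higher. CML41 is preceded by GATL2, a galacturonosyltransferase-like gene, with 45 reads in the jmj16-labelled library and 9 in wild type (log2 ratio 1.79, 0.80 to 3.07, and 1.68 after length correction). CML23 is preceded by MYB90, an activator of anthocyanin synthesis, with 71 reads in the jmj16-labelled library and 2 in wild type (4.37, 2.77 to 7.75, and 4.07 after length correction). Both GATL2 and MYB90 reached the minimum of 20 reads through the jmj16-labelled library alone. The other neighbour of CML41, AT3G50780, had a log2 ratio of -0.21 (-0.68 to 0.26), and that of CML38, AT1G76660, of 0.34 (0.08 to 0.60).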
